A study of Mus musculus with 4 samples.

Results

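Dopamine receptors and 5 further genes of striatal neuron signalling were followed across 4 microarrays of mouse prefrontal cortex. The set was named by symbol: the receptor genes Drd1, Drd2, Drd3 and Drd4, the receptor genes Adora2a and Gpr6, the signalling genes Rgs9 and Ppp1r1b, and the transcription factor gene Six3. All 9 symbols were found, of 27248 gene names on the array, and they were covered by 20 of 56605 probes. The genes were chosen by their signals on these same 4 arrays, which were known from earlier results, so every value is a description and none is a test.

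The arrays crossed 2 genotypes with 2 diets in 3-month-old B6J mice. The groups were wild-type mice on a starch diet (the control group), wild-type mice on a sucrose diet, mice heterozygous for Glo1 on starch and mice heterozygous for Glo1 on sucrose. All mice ate their diet for about 70 days, beginning at weaning on postnatal day 21. Glo1 encodes glyoxalase 1, which detoxifies methylglyoxal, and how the allele was made is not given in the sources used here. In each group the total RNA of 3 mice was pooled before labelling, and 1 one-colour array was hybridised per pool, so a group had 1 array and the spread between mice was not measured.

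Dopamine acts on receptors of a D1 class, which raise cyclic AMP through stimulatory G proteins, and of a D2 class, which lower it through inhibitory G proteins. In the striatum most neurons are spiny projection neurons of a direct pathway, marked by Drd1, or of an indirect pathway, marked by Drd2, Adora2a and Gpr6. Both kinds carry the phosphatase inhibitor DARPP-32, encoded by Ppp1r1b, and the G protein regulator encoded by Rgs9. The prefrontal cortex receives dopamine fibres and expresses dopamine receptors at lower levels than the striatum, which lies beneath it.

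Levels are signals divided by the 75th percentile of the signals on the same array, which was 1780 to 1929 intensity units. Changes are differences of log2 levels, and 2-fold (a log2 change of 1 or more in size) was the size at which a gene was counted. The ± beside a change is the scanner software's error of the 2 spots, which leaves out the spread between mice and between pools. For dim genes it was also smaller than the SD from repeated spots of like signal. For diet in heterozygous mice it was 0.28 against 0.44 for Drd2 and 0.36 against 0.57 for Drd3. For the bright Drd1 probe it was larger, at 0.20 against 0.10. Every member probe was printed as 1 spot per array. A gene is represented by its brightest probe, and levels are compared between arrays and not between probes. The arrays shared 1 slide, where the position of an array and its group cannot be told apart. Between 77.6% and 80.2% of the spots were well above background and no spot was saturated. Glo1 was at 4.04 and 5.53 on the wild-type starch and sucrose arrays, and at 2.74 and 3.04 on the heterozygous ones, lower in the heterozygous group on each diet.

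The spots measured hybridisation to 60-base probes, and 5 of them are shown because the receptor values turn on single spots and because related receptors could share signal. The positions are those of the files, on build mm9. In the Drd3 and Drd4 probes the capitals mark the longest run of letters that these share, which is 10 bases. The Drd2 probe lies at chr9:49215047-49215106 (plus strand), the Drd3 probe at chr16:43822893-43822952 (plus strand) and the Drd4 probe at chr7:148480683-148480742 (plus strand). The Gpr6 probe shown, the dimmer of its 2, lies at chr10:40790325-40790384 (minus strand). The Ppp1r1b probe shown, also the dimmer of its 2, spans chr11:98216810-98218184 (plus strand), so its 60 bases come from a spliced transcript across 1375 bases of genome.
Drd2 A_52_P529650: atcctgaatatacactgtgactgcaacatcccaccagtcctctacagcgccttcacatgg
Drd3 A_55_P1981186: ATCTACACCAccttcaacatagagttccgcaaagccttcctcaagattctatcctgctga
Drd4 A_51_P283499: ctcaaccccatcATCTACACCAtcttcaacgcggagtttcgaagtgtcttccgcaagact
Gpr6 A_55_P2166508: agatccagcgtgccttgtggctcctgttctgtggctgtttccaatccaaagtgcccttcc
Ppp1r1b A_52_P664867: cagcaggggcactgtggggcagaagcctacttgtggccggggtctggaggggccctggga

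Each of these sequences can be read in at least 1 frame of 20 codons without an internal stop codon, and the Drd3 probe ends in one. Laid over each other without gaps, the Drd3 and Drd4 probes had 37 identical bases of 48 overlapping bases (77.1%). A dim Rgs9 probe (A_55_P1969027) and the Gpr6 probe shown also shared a run of 10 bases, with 21 identical bases of 52 (40.4%), and no pair of probes from different member genes shared a longer run. The array values of Drd3 and Drd4 did not go together, as given with each gene.

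For 6 of the 9 genes, the wild-type sucrose and heterozygous starch arrays both gave a higher signal than the wild-type starch and heterozygous sucrose arrays. These were Drd1, Adora2a, Gpr6, Rgs9, Ppp1r1b and Six3. Over all 20655 genes well above background on the 4 arrays, 11.9% had this order. On sucrose relative to starch, Drd1, Adora2a, Gpr6, Rgs9 and Six3 were 2-fold or more higher in wild-type mice and 2-fold or more lower in heterozygous mice, an arrangement seen in 12 of all genes (0.0581%). The reverse arrangement was seen in 0 of 9 members and in 7 of all genes (0.0339%). Drd2, Drd3 and Drd4 each showed another pattern.

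**Figure D1:**
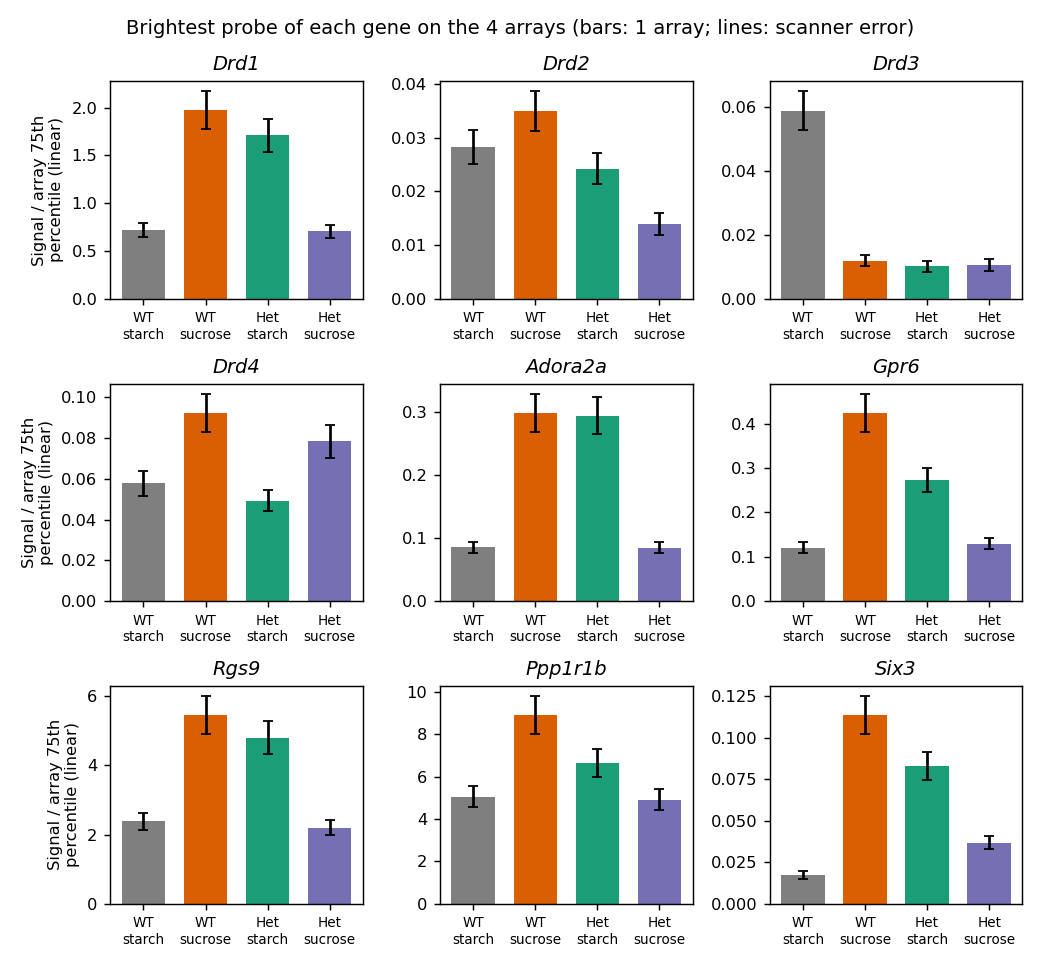
Signal of the brightest probe of each gene (level: multiple of the array's 75th percentile, linear axis from 0) on the 4 arrays, 1 bar per array, with lines for the scanner error of the spot. Drd1, Adora2a, Gpr6, Rgs9, Ppp1r1b and Six3 are higher on the 2 middle arrays than on the outer arrays, Drd3 is high on the wild-type starch array alone, and Drd4 is higher on both sucrose arrays.

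Drd1 encodes the main receptor of the D1 class and had 2 probes. The brightest (A_55_P2807115, chromosome 13, 54146585 to 54146644, minus strand) was at 0.720 on the wild-type starch array, 1.97 on wild-type sucrose, 1.71 on heterozygous starch and 0.706 on heterozygous sucrose. The wild-type starch and heterozygous sucrose arrays were alike, and the other arrays lay above both. The diet change was 1.45 ± 0.20 in wild-type mice and -1.27 ± 0.20 in heterozygous mice. Its second probe (chromosome 13, 54147277 to 54147336) gave 1.40 and -1.40, each within the scanner error of the first.

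Drd2 encodes the D2 receptor, which inhibits adenylyl cyclase and also acts as a release-controlling autoreceptor on dopamine neurons. Its single probe was dim, in the lowest 13.4% of probes by mean signal. Its levels were 0.0282 and 0.0349 on the wild-type starch and sucrose arrays, and 0.0242 and 0.0139 on the heterozygous starch and sucrose arrays. The diet change was 0.31 ± 0.23 in wild-type mice and -0.80 ± 0.28 in heterozygotes, neither past 2-fold. Only the heterozygous sucrose array stood below the rest, at -1.32 ± 0.27 against wild-type sucrose and -1.02 ± 0.27 against wild-type starch. With a background model that damps dim signals (normexp), these differences were -0.47 and -0.46, so neither passed 2-fold, and the interaction given with the other comparisons was -0.32.

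Drd3 encodes a D2-class receptor that is best known from the ventral striatum and the islands of Calleja. Its probe was at 0.0587 on the wild-type starch array, and at 0.0119, 0.0101 and 0.0105 on the wild-type sucrose, heterozygous starch and heterozygous sucrose arrays. One array was high and the other 3 lay close together, near the lowest level that was well above background on any array (0.00552 to 0.00672). The change with diet was -2.30 ± 0.25 in wild-type mice and 0.05 ± 0.36 in heterozygous mice, and -1.07 and -0.06 under normexp. The high value is 1 spot of 104 intensity units against at most 22.7 on the others, and no second probe of Drd3 was on the array.

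Drd4 encodes a D2-class receptor that is found in the prefrontal cortex and retina. The brightest of its 3 probes was at 0.0577 and 0.0922 on the wild-type starch and sucrose arrays and at 0.0493 and 0.0783 on the heterozygous starch and sucrose arrays. Both sucrose arrays were above both starch arrays, with diet changes of 0.68 ± 0.21 in wild-type mice and 0.67 ± 0.21 in heterozygotes, which were 0.34 and 0.35 under normexp. A second probe (A_66_P126290) gave 0.16 ± 0.25 and 0.40 ± 0.27, and another (A_52_P196278) was not well above background on the heterozygous sucrose array. No Drd4 value passed 2-fold in any comparison, and the genotype changes of the brightest probe were -0.23 on starch and -0.24 on sucrose.

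Adora2a encodes an adenosine receptor that opposes the D2 receptor in indirect-pathway neurons. Its single probe (A_55_P2109382, chromosome 10, 74797461 to 74797520, plus strand) was at 0.0861 on the wild-type starch array, 0.299 on wild-type sucrose, 0.295 on heterozygous starch and 0.0853 on heterozygous sucrose. The arrays formed pairs whose members differed by less than the scanner error, with a difference between heterozygous sucrose and wild-type starch of -0.01 ± 0.21. Between the pairs the change was 1.80 ± 0.21 for diet in wild-type mice, which is 3.48-fold, and -1.79 ± 0.21 for diet in heterozygous mice, which is 3.45-fold.

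Gpr6 encodes an orphan receptor that raises cyclic AMP and marks indirect-pathway neurons. The brightest probe (A_66_P113828, chromosome 10, 40790116 to 40790175, minus strand) was at 0.121 and 0.424 on the wild-type starch and sucrose arrays, and at 0.273 and 0.130 on the heterozygous ones. Its diet changes were 1.81 ± 0.20 in wild-type mice and -1.07 ± 0.21 in heterozygotes. The other probe, whose sequence is printed with the receptor probes, gave 0.83 ± 0.20 and -0.38 ± 0.20. Both probes put the wild-type sucrose array highest and the heterozygous starch array next, but the second probe gave smaller changes.

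Rgs9 encodes a regulator that speeds the shut-off of G proteins, and its longer splice form is enriched in the striatum, where it acts on D2-class signalling. It had 5 probes, all well above background on the 4 arrays. The brightest (A_55_P2032232, chromosome 11, 109086669 to 109086728, minus strand) was at 2.38 on wild-type starch, 5.45 on wild-type sucrose, 4.80 on heterozygous starch and 2.20 on heterozygous sucrose. The diet change was 1.19 ± 0.20 in wild-type mice and -1.13 ± 0.20 in heterozygotes.

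The 3 Rgs9 probes that the files assign to transcript variant 1 gave diet changes of 1.19 to 1.22 in wild-type mice and -1.19 to -1.13 in heterozygous mice. Of these, A_55_P2032232 and A_55_P1969032 overlap by 54 bases and are not independent, whereas A_51_P371034 shares no run of more than 5 bases with them. The probe of transcript variant 2 (A_66_P140185, chromosome 11, 109096382 to 109096441) gave 0.33 ± 0.21 and -0.23 ± 0.22. Its levels were 0.0465, 0.0587, 0.0468 and 0.0399, in the order wild-type starch, wild-type sucrose, heterozygous starch and heterozygous sucrose. A further probe (A_55_P1969027), assigned to another transcript model, lay between with 0.75 ± 0.21 and -0.65 ± 0.21. For genotype on starch the variant 2 probe gave 0.01 ± 0.21, against 1.01 ± 0.20 for the brightest probe. The variant 2 probe was dim, in the lowest 24.6% of probes by mean signal. For diet the probes of the 2 variants had the same direction and differed in size by more than their scanner errors, and this was not computed under normexp.

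Ppp1r1b encodes DARPP-32, which inhibits protein phosphatase 1 once protein kinase A has phosphorylated it. The brightest of its 2 probes (A_55_P2026275, chromosome 11, 98218965 to 98219024, plus strand) was at 5.06 and 8.90 on the wild-type starch and sucrose arrays and at 6.65 and 4.92 on the heterozygous starch and sucrose arrays. The order of the arrays was that of Drd1, with smaller differences. Its diet changes were 0.81 ± 0.20 in wild-type mice and -0.44 ± 0.20 in heterozygotes, neither past 2-fold. The splice-spanning probe printed with the receptor probes gave 0.55 ± 0.20 and -0.41 ± 0.20.

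Six3 encodes a homeodomain transcription factor of forebrain and eye development that is needed for indirect-pathway neurons. One of its 3 probes was measured (A_55_P2082403, chromosome 17, 86023349 to 86023408, plus strand), at 0.0174 on wild-type starch, 0.113 on wild-type sucrose, 0.0831 on heterozygous starch and 0.0367 on heterozygous sucrose. The wild-type starch array was lowest, below heterozygous sucrose by 1.07 ± 0.25, which was 0.25 under normexp. The diet change was 2.70 ± 0.24 in wild-type mice (6.50-fold) and -1.18 ± 0.22 in heterozygous mice (2.27-fold). Under normexp these were 1.24 and -0.68, the latter not past 2-fold. The other Six3 probes, A_51_P187561 and A_55_P2082408, were not well above background on any array, at 2.33 to 4.16 intensity units, so Six3 rests on 1 dim spot per array.

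**Figure D2:**
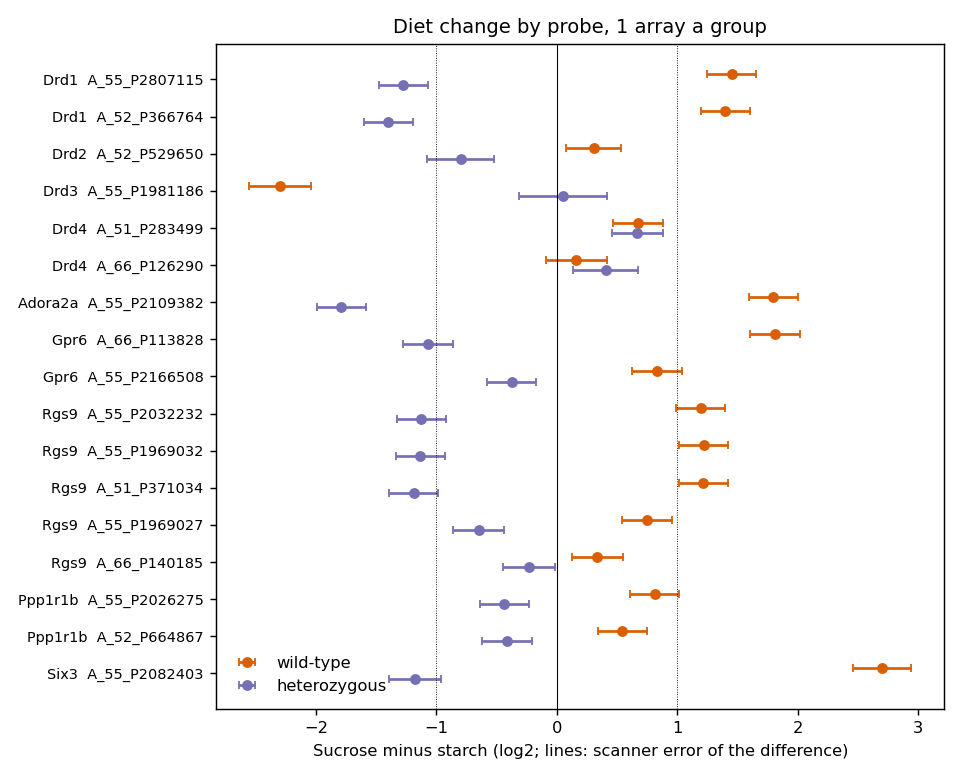
Diet change (sucrose minus starch, log2) of the 17 member probes that were well above background on all 4 arrays, in wild-type and in heterozygous mice, with lines for the scanner error of the difference and dotted lines at 2-fold. Probes of Drd1, Adora2a, Gpr6, Rgs9, Ppp1r1b and Six3 lie to the right in wild-type and to the left in heterozygous mice, with the variant 2 probe of Rgs9 (A_66_P140185) nearest to 0 among them.

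Over the 9 genes, the diet comparison in wild-type mice asks what sucrose goes with on the normal genotype. The median change was 1.19, against 0.00 over all genes, with 8 genes higher and 1 lower on sucrose. Past 2-fold were 6 of 9, where 1.48% of all genes passed. Of these, Drd1, Adora2a, Gpr6, Rgs9 and Six3 were higher (0.484% of all genes) and Drd3 was lower (0.992%). In heterozygous mice the median diet change was -1.07, against 0.00 over all genes, with 7 genes lower and 2 (Drd3 and Drd4) higher. Past 2-fold were Drd1, Adora2a, Gpr6, Rgs9 and Six3, all lower (0.479% of all genes), and none was higher (1.29%), where 1.77% of all genes passed in either direction. Under normexp the median in heterozygous mice was -0.68, and 3 of 9 genes passed, where 0.726% of all genes did. By any amount, 7 of 9 genes were higher in wild-type mice and lower in heterozygotes on sucrose, as were 19.7% of all genes. These comparisons share no array.

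**Figure D3:**
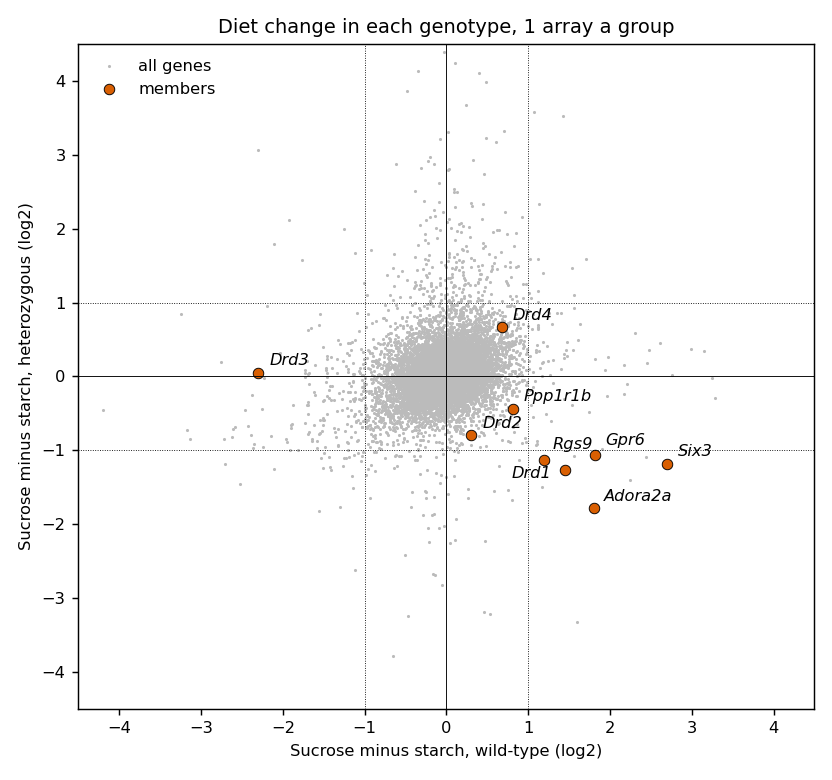
Diet change of every gene in wild-type mice (horizontal axis, log2) against that in heterozygous mice (vertical axis, log2), 1 array a group, with the 9 members in orange and dotted lines at 2-fold. Drd1, Adora2a, Gpr6, Rgs9 and Six3 lie in the lower right corner beyond both dotted lines, and 8 genes lie outside the plotted range.

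The genotype comparisons use the same 4 arrays in other pairs, so their values follow in part from those of diet. On starch, heterozygous mice had a median change of 1.01 against wild-type mice, with 6 genes higher and 3 lower, against -0.02 over all genes. Past 2-fold were Drd1 (1.25), Adora2a (1.78), Gpr6 (1.17), Rgs9 (1.01) and Six3 (2.25), which were higher (0.344% of all genes), and Drd3 (-2.54), which was lower (0.47%), where 0.813% of all genes passed in either direction. Under normexp 3 of these passed, as Gpr6 (0.91), Six3 (0.94) and Drd3 (-0.98) did not. With the mean over probes Gpr6 (0.83) and Rgs9 (0.75) did not pass, nor did Rgs9 with median scaling. On sucrose the median was -1.32, against -0.02 over all genes. All 9 genes were lower in heterozygous mice, where 45.1% of all genes were higher, but Drd3 (-0.19 ± 0.33) lay within its error and was at 0.03 under normexp. Drd4 (-0.24 ± 0.21) was at -0.13 under normexp, and its probe A_66_P126290 gave 0.01 ± 0.25, so its sign is not settled either. Past 2-fold were 6 of 9 genes, where 1.71% of all genes passed, and 4 of 9 under normexp. Lower past 2-fold were 0.349% of all genes and higher 1.37%. The 6 were Drd1 (-1.48), Drd2 (-1.32), Adora2a (-1.81), Gpr6 (-1.71), Rgs9 (-1.31) and Six3 (-1.63).

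Between heterozygous mice on sucrose and wild-type mice on starch, which differ in both factors, the median was -0.03. Drd2 (-1.02) and Drd3 (-2.49) were lower past 2-fold (0.654% of all genes) and Six3 (1.07) was higher (1.35%), where 2% of all genes passed in either direction. Under normexp only Drd3 (-1.04) passed, with Six3 at 0.25 and Drd2 at -0.46, and Drd2 (-0.99) also missed 2-fold with cyclic loess. By their brightest probes, Drd1 (-0.03), Adora2a (-0.01), Gpr6 (0.10), Rgs9 (-0.12) and Ppp1r1b (-0.04) differed between these arrays by less than the scanner error. The second probes of Drd1 (-0.213 ± 0.205) and Ppp1r1b (-0.263 ± 0.205) and the variant 2 probe of Rgs9 (-0.222 ± 0.217) were lower by more than it. The interaction, which is the change with diet in heterozygotes less the same change in wild-type mice, had a median of -2.32 against 0.00 over all genes. It passed 1 in size for 8 of 9 genes, where 2.88% of all genes did, from -3.88 ± 0.32 for Six3 and -3.59 ± 0.29 for Adora2a to 2.35 ± 0.44 for Drd3. It was negative past that size for 7 genes (0.794% of all genes) and positive for Drd3 (2.08%). Drd4 was the exception at -0.01 ± 0.30. Under normexp Six3 was at -1.92, Adora2a at -2.76 and Drd3 at 1.01, so Adora2a was then the lowest. Drd2 was at -0.32 there, and 7 of 9 genes passed 1 in size, where 1.1% of all genes did.

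Under normexp, 3 of 9 genes rather than 5 were past 2-fold in opposite directions: Drd1, Adora2a and Rgs9. Of all genes, 4 (0.0194%) were so under normexp. There Gpr6 gave 1.46 in wild-type mice and -0.88 in heterozygotes, Six3 by 1.24 and -0.68, and Drd3 by -1.07 and -0.06. With the mean over a gene's probes in place of its brightest probe, Drd1, Adora2a and Six3 passed, as did 9 of all genes (0.0436%), and Rgs9 gave 0.94 and -0.87.

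Genes that work with the members were taken from lists. Of 10 genes of dopamine synthesis, transport and breakdown, the median diet change was -0.04 in wild-type mice and -0.04 in heterozygotes. Only Th, which encodes the rate-limiting enzyme tyrosine hydroxylase, passed 2-fold for diet, at 4.29 and 0.97 on the wild-type starch and sucrose arrays (-2.14) and 3.77 and 2.15 on the heterozygous ones (-0.81). Olfactory bulb markers were lower on the same arrays (medians of -2.35 and -0.71), and their part in the Th values was not tested. This is not the order of the arrays seen for Drd1 or Adora2a.

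Of 30 genes that couple dopamine receptors to G proteins and effectors, 26 were higher on sucrose in wild-type mice (median 0.13) and 22 were lower in heterozygous mice (median -0.10). Drd5, which encodes the other receptor of the D1 class, was at 0.260 and 0.445 on the wild-type starch and sucrose arrays and 0.253 and 0.740 on the heterozygous ones, higher on sucrose in both genotypes (0.78 and 1.55) and past 2-fold in heterozygotes. Named after their values were seen, Pde10a, which encodes a striatal cyclic nucleotide phosphodiesterase, gave 0.58 and -0.71 for diet, and Adcy5, the main striatal adenylyl cyclase gene, gave 0.29 and -0.27.

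Summed markers of striatal projection neurons were higher on the wild-type sucrose and heterozygous starch arrays than on the others, and their part in the members' values was not tested. Of 9 measured markers of the direct pathway, 6 were higher on sucrose in wild-type mice (median 0.11) and 7 lower in heterozygous mice (median -0.12), with Tac1, the substance P precursor gene, at 0.88 and -1.13 and Slc35d3 at 0.09 and -1.35. Their summed level was 18.4 and 24.9 on the wild-type starch and sucrose arrays and 24.4 and 18.0 on the heterozygous ones. Of 10 measured markers of the indirect pathway, 6 were higher and 4 lower in wild-type mice (median 0.07). In heterozygous mice 7 were lower and 3 higher (median -0.09). Upb1, which was dim (0.0492 on wild-type starch), gave 1.74 and -0.49. Others went another way: Sp9 gave -0.99 and -0.58 and Ttc12 -0.31 and 0.40, both named after their values were seen. Isl1, on the direct list, was not well above background on all 4 arrays. The summed level of the indirect list was 28.8, 36.9, 36.4 and 25.5 in the same order. The sums rest on a few bright genes, named after their values were seen: Tac1 and the dynorphin precursor gene Pdyn (0.73 and -0.23) in the direct list, and the enkephalin precursor gene Penk (0.46 and -0.79) in the indirect list.

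Of 22 other measured striatal projection neuron markers, 20 were higher on sucrose in wild-type mice (median 0.35) and 16 were lower in heterozygous mice (median -0.20). Among those past 2-fold for diet were Sh3rf2 (2.44 in wild-type mice and -1.10 in heterozygotes), Ido1 (1.90 and -0.98) and Lrrc10b (0.94 and 1.07), of which Lrrc10b was higher in both genotypes. Sh3rf2 and Ido1 were dim, at 0.0137 and 0.0438 on wild-type starch. The summed level of the list was 77.7, 94.9, 88.8 and 78.3 on wild-type starch, wild-type sucrose, heterozygous starch and heterozygous sucrose. In bulk tissue, fewer cells of a type and less RNA per cell cannot be told apart.

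**Figure D4:**
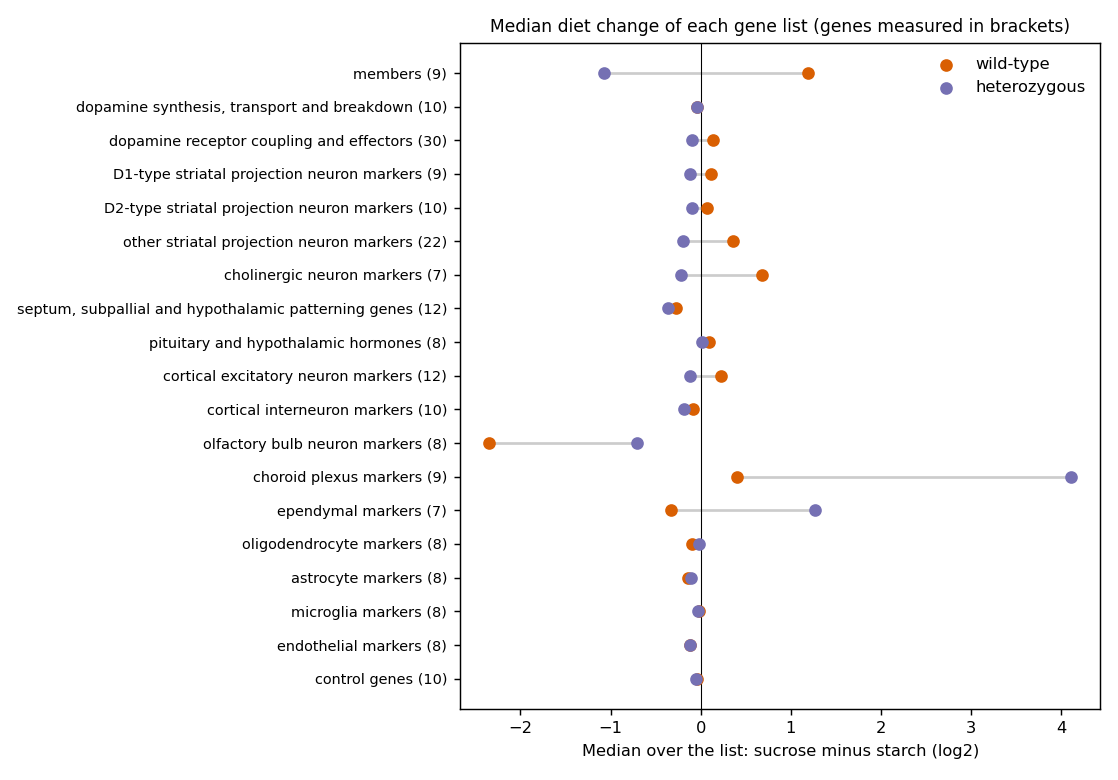
Median diet change (sucrose minus starch, log2) over each gene list, in wild-type and in heterozygous mice, with the number of genes measured in brackets and 1 array a group. The 9 members lie at 1.19 and -1.07, the other striatal markers at 0.35 and -0.20, and the choroid plexus and olfactory bulb lists are far from 0 in 1 or both genotypes.

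Markers of other cells and regions were set beside the members. Of 7 measured cholinergic neuron markers, 5 were higher on sucrose in wild-type mice (median 0.68) and 5 lower in heterozygous mice (median -0.22), with Slc10a4 at 2.25 and -1.40 and Slc5a7, the choline transporter gene, at 0.0504, 0.108, 0.0774 and 0.0407 on wild-type starch, wild-type sucrose, heterozygous starch and heterozygous sucrose. With the mean over probes the wild-type median of this list was 0.31. Its summed level was highest on the wild-type sucrose array (1.67), then on heterozygous starch (1.39) and heterozygous sucrose (1.16), and lowest on wild-type starch. Chat, the defining enzyme gene of these neurons, gave 0.23 and 0.13, and was named after its values were seen.

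Cortical excitatory neuron markers were measured for 12 of 12 genes on every array, with a summed level between 48.0 and 55.9. Of these, 11 were higher on sucrose in wild-type mice (median 0.22) and 7 were lower and 5 higher in heterozygous mice (median -0.12). Among them Foxp2, which is also expressed in the striatum, was at 1.28 and -0.61. Olfactory bulb markers were lower on sucrose, at 7 of 8 in wild-type mice (median -2.35) and 8 of 8 in heterozygous mice (median -0.71), with a summed level of 15.1 on both starch arrays, 8.61 on wild-type sucrose and a value in between on heterozygous sucrose. Among them Eomes gave -3.17 and -0.73. Choroid plexus markers stood highest on the heterozygous sucrose array, with a summed level of 72.2 against 1.26 to 2.51 on the other arrays. Among them Ttr, the transthyretin gene, gave 2.46 and 9.18. Neither of these lists had the order of the arrays seen for Drd1, and their part in the members' values was not tested. Oligodendrocyte, astrocyte, microglia, endothelial and control gene lists had median diet changes between -0.14 and -0.02.

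The genes most like the members were those with the smallest root mean square difference, over the 4 arrays, from the median pattern of the members. That pattern, in log2 units around each gene's mean, was -0.52 on wild-type starch, 0.67 on wild-type sucrose, 0.40 on heterozygous starch and -0.66 on heterozygous sucrose. Rgs9 was the median member in several comparisons, so its closeness to this pattern (0.044) is built in. Outside the members, and of 20655 genes ranked, Gm31251 (0.050), Zg16 (0.077), Gm26885 (0.11) and Slc5a7 (0.11) were among the first 10, as were Cartpt (0.12), Tac1 (0.12), Gm33651 (0.14), Foxp2 (0.17) and Nexn (0.19). Tac1 was on a striatal list, and Cartpt encodes a neuropeptide precursor. Gm31251, Zg16 and Gm26885 were dim, with levels below 0.04 on every array, and under normexp 3 of the 10 genes, Cartpt and Gm33651 among them, were again among the first 10.

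**Figure D5:**
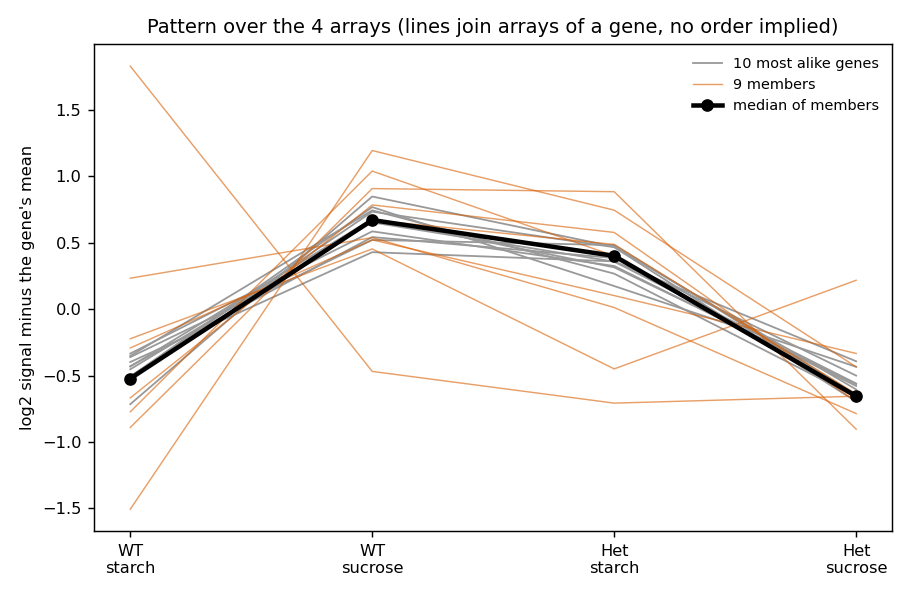
log2 signal minus the gene's own mean on the 4 arrays, for the 9 members (orange), their median (black) and the 10 most alike genes (grey); lines join the arrays of a gene and imply no order. The median runs from -0.52 over 0.67 and 0.40 to -0.66, and the member that starts highest is Drd3.

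Promoter windows were available from RefSeq (assembly GRCm38.p6) for 7 of the 9 genes, in 8 windows, and not for Adora2a and Ppp1r1b. Each window holds 250 bases before and 50 after a start site, and 4 motifs were searched on both strands. The GC box GGGCGG was found in windows of Drd1, Drd2, Drd4 and Rgs9, and in 35.7% of all 32851 windows. The cAMP response element TGACGTCA, the binding site of CREB, was found for Gpr6 only and in 1.79% of all windows, and its shorter form TGACG, which the full element contains, likewise for Gpr6 only and in 20.8%. The TATA box letters TATAAA, searched at any position in the window, were found for Rgs9 only and in 13.6%.

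The upstream 250 bases of Gpr6 and Rgs9 are shown because these genes followed the same arrays and because their letters differ in these motifs, which the capitals mark. Both lie on the minus strand and are written 5′ to 3′ towards the start site, Gpr6 at chr10:41072291-41072540 and Rgs9 at chr11:109298182-109298431. The Gpr6 element begins 78 bases before the start, and the TATAAA and GC box letters of Rgs9 begin 195 and 91 bases before it. A match describes letters and is no evidence of binding in these samples.
Gpr6 upstream: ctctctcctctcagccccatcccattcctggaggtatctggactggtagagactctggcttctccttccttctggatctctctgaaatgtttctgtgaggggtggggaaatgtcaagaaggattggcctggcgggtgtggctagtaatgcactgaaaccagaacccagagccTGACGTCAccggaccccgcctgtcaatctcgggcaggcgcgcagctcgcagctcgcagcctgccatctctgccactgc
Rgs9 upstream: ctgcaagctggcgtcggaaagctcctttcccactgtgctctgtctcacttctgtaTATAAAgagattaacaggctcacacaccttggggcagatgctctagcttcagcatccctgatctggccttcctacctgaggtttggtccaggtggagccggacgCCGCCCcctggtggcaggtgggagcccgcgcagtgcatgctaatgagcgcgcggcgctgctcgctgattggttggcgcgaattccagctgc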

How the data were processed

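The intensity values that the authors deposited came from Agilent Feature Extraction (11.5.1.1, per the submitters' processing notes), which per the file headers subtracted background and detrended within the array, with no step between arrays. The deposited series matrix holds 1 ratio per spot, which on comparison was the processed signal over the array's 75th percentile. Here each processed intensity was divided by that percentile over non-control spots and put on the log2 scale, without spots marked as outliers. Probes well above background on all 4 arrays were kept (42094 probes, 35477 of them with a gene symbol). Each of the 20655 genes with such a probe was counted by the brightest of them. Each comparison is a difference of single arrays, without a test, and the calculation was tested on simulated data. Errors are the scanner's. The same difference from probes with at least 5 spots and a signal within 1 log2 unit had an SD of 0.07 to 0.57 for the diet changes of the 9 brightest probes. Alternatives were normexp with an offset of 50, quantile and cyclic loess normalisation (limma 3.58.1), other scalings, all probes of a gene, no dim filter, flagged spots kept and the series matrix. Context genes are named from those past 2-fold for diet, at most 5 a list and in some lists only the first. A result on a context gene is not reported here. Members, lists and tests were chosen with earlier results of these data known. Names are those of the files.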

Additional observations from a re-analysis of the deposited data

Results flagged for a closer look

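On sucrose 7 of the 9 genes were higher in wild-type and lower in heterozygous mice, as were 19.7% of all genes, with 1 array a group, and this difference was not tested. The change with diet in heterozygotes less the same change in wild-type mice was -2.73 for Drd1, -1.10 for Drd2, -3.59 for Adora2a, -2.88 for Gpr6, -2.32 for Rgs9, -1.25 for Ppp1r1b and -3.88 for Six3. For Drd3, whose values had the reverse signs, it was 2.35, but its diet change in heterozygous mice (0.05) was smaller than its scanner error (0.36), so its sign there is not measured. Under normexp Drd3 was lower in both genotypes (-1.07 and -0.06), and the difference was 1.01 for Drd3, -1.92 for Six3 and -0.32 for Drd2.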

How the results depend on the processing

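No paired analysis was possible because each group has 1 array. Median scaling, the percentile over detected probes, quantile, cyclic loess, no filter on dim probes, flagged spots kept and the series matrix left each median and count over the 9 genes within its error or 1.5 times. Under normexp the median diet change in heterozygous mice was -0.68, that for genotype on sucrose -0.98 and that of the interaction -1.92. There 3 genes passed 2-fold for diet in heterozygous mice, 3 for genotype on starch, 1 for both factors and 3 for opposite diet changes. With the mean over probes the medians were 0.94 and -0.80 for diet in wild-type and heterozygous mice, 0.75 for genotype on starch and -1.81 for the interaction, and 3 genes passed for diet in heterozygous mice and 3 for opposite diet changes. Of the single-gene values, 448 stayed within the scanner error and 38 moved by more than the scanner error, 27 under normexp and 11 with the mean over probes, and no change past 2-fold turned its sign. Without the dim filter 5.31% to 9.35% of all genes passed 2-fold, and under normexp 0.232% to 1.1%. Of the genes past 2-fold for genotype on starch, 42.3% were higher in heterozygous mice, and 58.3% under normexp. Drd2, Drd3, Drd4 and Six3 rest on dim spots.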

Other observations

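Six3os1, the gene of a non-coding RNA transcribed from the opposite strand beside Six3, was looked at after the values of Six3 had been seen. Its probe A_55_P2145159 was at 0.0130 on the wild-type starch array, 0.0602 on wild-type sucrose, 0.0445 on heterozygous starch and 0.0414 on heterozygous sucrose. As with Six3, the wild-type starch array was lowest and the wild-type sucrose array highest, with a diet change of 2.21 in wild-type mice. In heterozygous mice the change was -0.11, where Six3 gave -1.18. A second Six3os1 probe was not well above background on any array.

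The prolactin gene Prl, named by the same rule as the other list genes, was dim and at its highest on the heterozygous starch array. Its 1 measured probe was at 0.0101 and 0.0305 on the wild-type starch and sucrose arrays, and at 0.106 and 0.0105 on the heterozygous ones. The lowest of these lie near the lowest level that was well above background (0.00552 to 0.00672). Its diet changes were 1.60 in wild-type mice and -3.33 in heterozygotes, and their size is uncertain at such levels. Oxt and Avp, the genes of oxytocin and vasopressin, had the reverse signs, with -2.19 and 0.95 for Oxt and -1.17 and 0.36 for Avp. Trh, the gene of thyrotropin-releasing hormone, gave -2.59 and -0.69. The 8 measured genes of that list had median diet changes of 0.09 in wild-type mice and 0.01 in heterozygotes.

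Septum and patterning genes had median diet changes of -0.27 and -0.36, with Sp8 at -1.92 and -0.99 and Prdm12 at 1.21 and -0.51. Cortical interneuron markers had medians of -0.08 and -0.18, with Calb2, the calretinin gene, at -1.60 and -0.26. Their summed level was 117 and 119 on the wild-type starch and sucrose arrays and 119 and 107 on the heterozygous ones. Ependymal markers had medians of -0.33 and 1.26, with a summed level that was highest on the heterozygous sucrose array (3.63 against 1.34 to 1.78) and Ccdc153 at -0.35 and 4.13.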
